A study of Mus musculus with 24 samples.

Results

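The 10 genes described here encode transcription factors and 1 cofactor of heart development: Gata4, Gata6, Tbx5, Tbx20, Hand1, Hand2, Nkx2-5, Nkx2-6, Isl1 and Zfpm2. They were taken by name out of 21887 protein-coding genes with a position on the mouse build mm10, and each was examined over a window made of its annotated body plus 120 kb on each side. The assay was CUT&RUN, which uses an antibody to bring a nuclease to a protein on chromatin and recovers the fragments it cuts. It was applied to a line of mouse embryonic fibroblasts (iMGT-Myh6-eGFP-MEF) in which doxycycline induces Mef2c, Gata4 and Tbx5 and Myh6 drives a green fluorescent reporter. For MEF2C, 3 libraries came from cells given siJunb, 3 from cells given siH1f0 and 2 from cells given siControl, each transfected the day before 1 µg/mL doxycycline and collected at day 1 of induction. For the linker histone H1.0, which H1f0 encodes, and for the heterochromatin mark H3K9me3, 2 libraries each came from siControl cells at day 1 and 2 each from ground-state cells that were not reprogrammed. All groups shared this 1 line with its integrated factors. The library names in the labels mark the ground state as day 0 with siControl, whereas its treatment fields give no treatment. Fibroblast identity and the knockdowns could not be checked, since RNA was not measured in the files used here.

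These genes form the core of the cardiac regulatory network. GATA4 and GATA6 are zinc finger factors, and ZFPM2 is a cofactor that binds GATA4. TBX5 and TBX20 are T-box factors, HAND1 and HAND2 basic helix-loop-helix factors of ventricular development, and NKX2-5, NKX2-6 and ISL1 homeodomain factors, ISL1 marking progenitors of the second heart field. MEF2C cooperates with GATA4 and TBX5 in reprogramming, and many of the 10 genes are known to regulate each other through enhancers that can lie far from the promoter.

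List length varied widely: 11731 to 49011 peaks (13.4 to 89.8 Mb) for MEF2C, 32934 to 722322 (28.6 to 1109 Mb) for H1.0 and 24219 to 69439 (65.9 to 363 Mb) for H3K9me3. The peak values are the authors' coverage in each peak, and the maximum within a peak was turned into a percentile of its own list, because the lists carry no scaling that would make values comparable between libraries. By the naming of the deposited lists, siJunb replicate 1, siH1f0 replicate 3 and siControl replicate 1 belong to one series and the other MEF2C libraries to a second, and the first series had the shorter list within each group. Overlapping MEF2C peaks were merged into 77240 regions, of which 121 touched the 10 windows. Of these 121 regions, 73 (60.3%) were found in 1 library, against 56.4% of all regions, and 3 (2.48%) in all 8 libraries, against 5.58% of all regions. siJunb replicate 2, the longest list, alone held 34 of the 73.

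Nkx2-5 had 33 MEF2C regions in its window, Tbx5 28 and Zfpm2 25, followed by Gata4 with 11, Hand1 with 9, Gata6 with 6, Hand2 and Nkx2-6 with 3 each, Tbx20 with 2 and Isl1 with 1. Per 100 kb of window, Nkx2-5 had 13.4 and Tbx5 8.52, whereas Zfpm2 with 3.63 stood beside Hand1 with 3.70 and Gata4 with 3.52, since its window is the longest. The other 5 had 0.398 to 2.20. Only 31 of the 121 touched the body of the gene, and 20 of those 31 were in Zfpm2, whose body of 449551 bp is the longest of the 10. For 73 of the 121 the member was the nearest protein-coding gene. All 25 regions of Zfpm2 and 23 of 28 of Tbx5 were nearest to that gene, whereas 26 of 33 in the Nkx2-5 window were nearer to another, since genes such as Crebrf, Bnip1, Kifc5b, Phf1 and Cuta share that window.

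**Figure D1:**
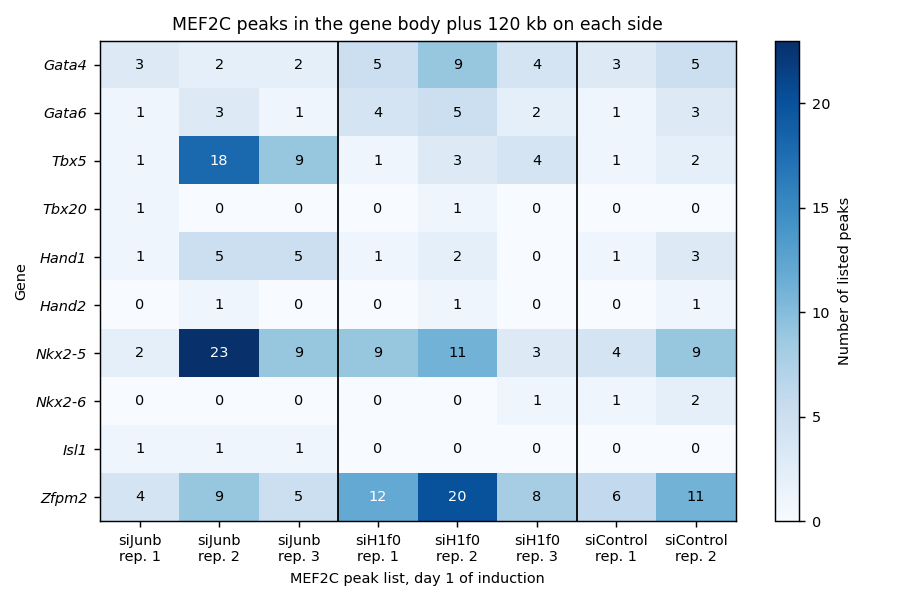
Number of MEF2C peaks (cell values and colour) in each gene's body plus 120 kb on each side (rows) in each of the 8 lists (columns; siJunb, siH1f0, siControl). Nkx2-5 and Tbx5 had 23 and 18 peaks in siJunb replicate 2, Zfpm2 had 20 in siH1f0 replicate 2, and Tbx20, Hand2, Nkx2-6 and Isl1 never had more than 2.

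The next count takes in the gene body and 5 kb on each side, so longer genes offer more sequence for a peak. Within 5 kb of the gene body, a MEF2C peak was listed for Zfpm2 in 8 of 8 libraries, for Tbx5 in 6, for Gata4 in 5, for Gata6, Hand1 and Hand2 in 1 each, and for Tbx20, Nkx2-5, Nkx2-6 and Isl1 in none. Hence 1 of the 10 (10%) had such a peak in every library, against 16.1% of all protein-coding genes, and 4 (40%) had none, against 31.6%. Per library, 1, 4 and 4 of the 10 had a peak there under siJunb, 3, 3 and 3 under siH1f0 and 1 and 3 under siControl. The shares of all protein-coding genes in the same libraries were 26.6, 53.8 and 41.8% under siJunb, 44.8, 52.2 and 34.7% under siH1f0 and 30.1 and 49.2% under siControl. Over these 8 libraries Zfpm2 differed from Tbx5, the member most like it, in 2. Gata4 and Tbx5 had the most similar pattern among the genes with several positive libraries, differing only in siJunb replicate 2. In siH1f0 replicates 1 and 2 the only Tbx5 peak counted was a narrow one, described below. Whether its reads came from the native gene or the integrated Tbx5 could not be told apart. Gata6 and Hand2 had the same pattern, since the single positive library of both was siJunb replicate 2. No member had a peak there in all libraries of one group and none of another. Among all genes, 0.704% had one in all siJunb and no siControl libraries and 1.15% the reverse, 0.621% in all siH1f0 and no siControl libraries and 0.183% the reverse, and 0.352% in all siJunb and no siH1f0 libraries and 0.973% the reverse.

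Gata4 (chr14:63198914-63271712) had 3, 2 and 2 peaks in its window under siJunb, 5, 9 and 4 under siH1f0 and 3 and 5 under siControl. The window also holds Ctsb, Fdft1, Neil2 and Blk. Its most recurrent region was chr14:63148723-63152130, 46.8 kb from the lower-coordinate end of Gata4 and inside Fdft1, an enzyme gene of sterol synthesis. It was held by 7 of 8 libraries, with peak maxima at percentiles 92.8 and 90.3 in siJunb replicates 2 and 3, 88.8, 87.7 and 76.6 under siH1f0 and 66.7 and 83.7 under siControl. The 1 library without it was siJunb replicate 1, the shortest list. Inside the Gata4 body, regions at chr14:63204651-63206074 and chr14:63241649-63243954 were held by 2 and 3 libraries, none of them siControl.

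Gata6 (chr18:11052510-11085636) had 1, 3 and 1 peaks under siJunb, 4, 5 and 2 under siH1f0 and 1 and 3 under siControl, and its window holds no other protein-coding gene. A single region, found only in siJunb replicate 2, touched its body. Its most recurrent region, chr18:11202305-11212734, began 116.7 kb from the higher-coordinate end of Gata6 and was held by all 8 libraries. Its percentiles were 74.4, 91.3 and 93.5 under siJunb, 96.6, 98.9 and 92.8 under siH1f0 and 93.2 and 98.4 under siControl. This was the highest median percentile among the 3 regions held by all 8, yet the region crosses the outer edge of the window, and these maxima belong to peaks beyond that edge. Of the peaks in it, those that touched the window's 3332 bp of the region came from 6 of 8 libraries and reached percentiles of 35.6 to 65.6.

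Zfpm2 (chr15:40655042-41104592) was the only member with a MEF2C peak in its body or within 5 kb of it in every library. Its body is the longest of the 10 and so offers the most sequence for such a peak. Peaks per 100 kb of the Zfpm2 window stood at percentiles 40.0 to 68.6 of all protein-coding genes in the 8 lists. Its window held 4, 9 and 5 peaks under siJunb, 12, 20 and 8 under siH1f0 and 6 and 11 under siControl. A region at chr15:40651791-40658252 spanned the lower-coordinate end of the gene and was held by every library except siJunb replicate 1. Its percentiles were 82.4 and 54.9 in siJunb replicates 2 and 3, 75.0, 80.1 and 29.5 under siH1f0 and 52.2 and 62.2 under siControl. The other recurrent regions lay within the body. The region at chr15:40819936-40825962, 168 kb into it, was held by all 8, at percentiles 23.6, 97.4 and 90.3 under siJunb, 79.8, 91.5 and 71.0 under siH1f0 and 79.5 and 88.7 under siControl. The region at chr15:40956279-40960815, 304 kb in, was also held by all 8, at percentiles 74.4, 65.2 and 77.9 under siJunb, 76.8, 80.1 and 55.0 under siH1f0 and 87.9 and 81.1 under siControl. At the first the groups overlapped. At the second the siControl libraries stood highest by peak maximum but not by summed coverage, where siH1f0 replicate 2 reached percentile 90.2, against 89.0 in siControl replicate 2.

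**Figure D2:**
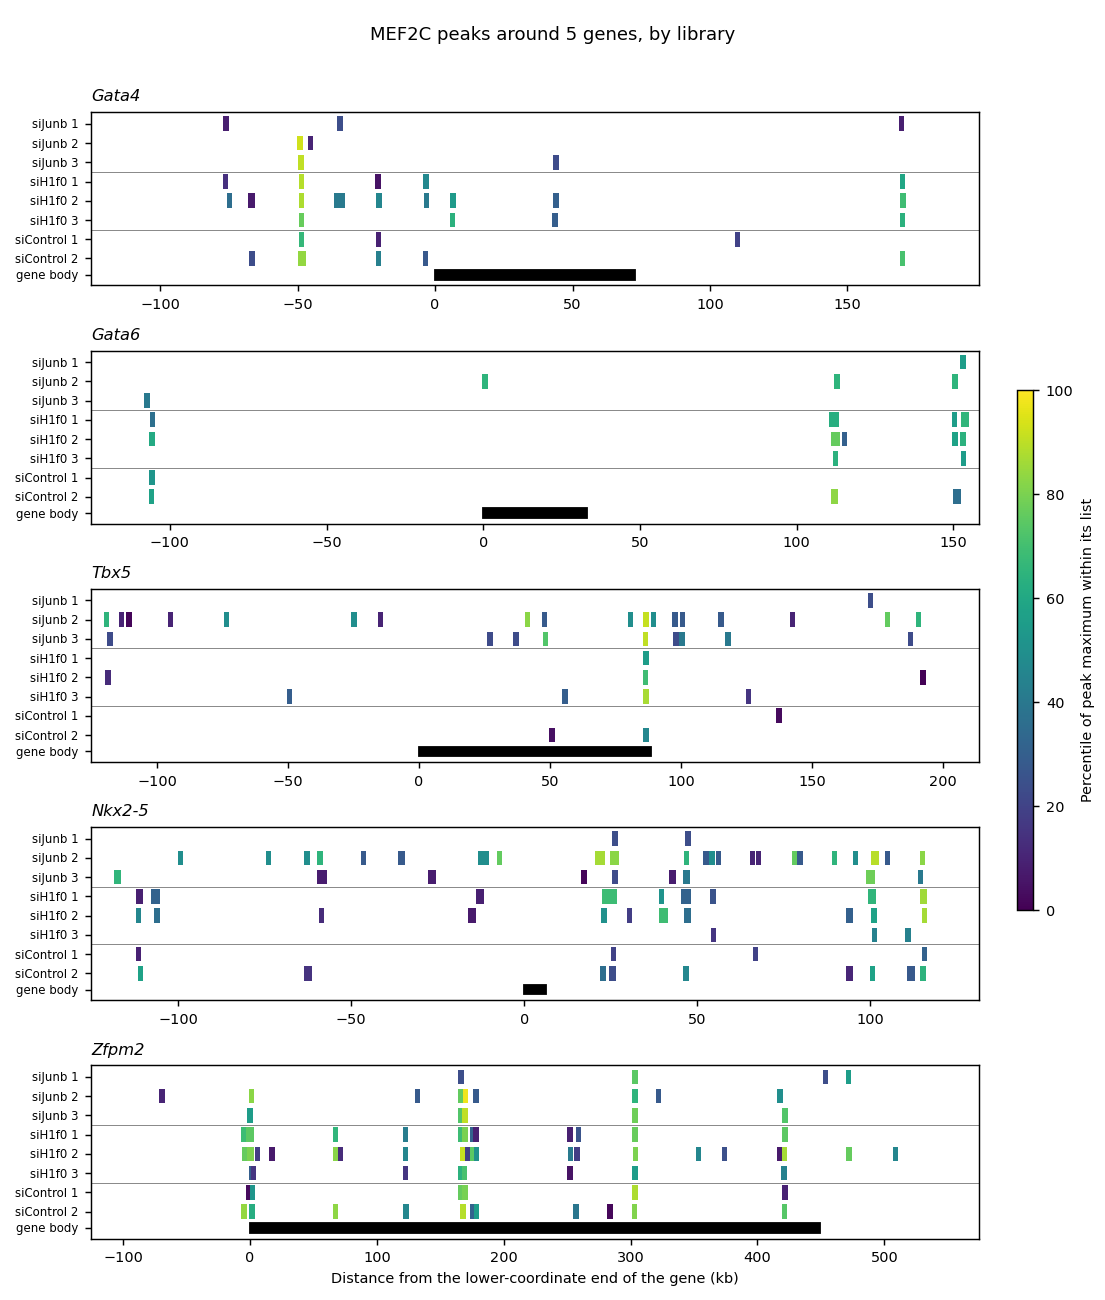
MEF2C peaks around Gata4, Gata6, Tbx5, Nkx2-5 and Zfpm2; the horizontal axis is the distance in kb from the lower-coordinate end of the gene, each row is 1 library, the colour is the percentile of the peak's maximum in its own list, and the black bar is the gene body. Narrow peaks are drawn wider than scale so that they can be seen. Zfpm2 shows columns of peaks at 168 and 304 kb in all 8 libraries, whereas most Tbx5 peaks stand in siJunb replicates 2 and 3 alone.

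TBX5 is 1 of the 3 induced factors. Tbx5 (chr5:119796514-119885220) had 1, 18 and 9 peaks in its window under siJunb, 1, 3 and 4 under siH1f0 and 1 and 2 under siControl. The 2 high counts were those of siJunb replicates 2 and 3, and 22 of the 28 regions were found in 1 library, 12 of them in siJunb replicate 2. The exception was chr5:119882466-119883528, inside the body and 86.5 kb from its lower-coordinate end, which 6 of 8 libraries held. Its percentiles were 91.3 and 90.3 in siJunb replicates 2 and 3, 55.4, 68.8 and 86.9 under siH1f0 and 46.4 in siControl replicate 2. The peaks were narrow, 564 and 923 bp under siJunb, 577, 1022 and 586 bp under siH1f0 and 577 bp under siControl, and at most 2.82% of the peaks of the same list were narrower. In 5 of the 6 libraries the upper edge agreed within 15 bp, at 119883487 or 119883496, and in 4 both edges did. In siH1f0 replicate 1 and siControl replicate 2 the edges were identical, from 119882911 to 119883487. The H1.0 list of ground-state replicate 2 also had a peak here, from 119882513 to 119883466. Whether reads at this place came from the native gene or from the integrated Tbx5 could not be told apart, because exons and the transgene sequence were not used here. No peak in the Gata4 body shared an edge between libraries within 15 bp.

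Tbx20 (chr9:24720812-24774303), a repressor and activator needed for chamber growth, had 1, 0 and 0 peaks under siJunb, 0, 1 and 0 under siH1f0 and none in either siControl library. The 2 peaks lay at different places, 65.5 and 16.8 kb from the gene, at percentiles 23.6 and 0.667. No recurrent MEF2C region was therefore listed around Tbx20.

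Hand1 (chr11:57828713-57832147) had 1, 5 and 5 peaks under siJunb, 1, 2 and 0 under siH1f0 and 1 and 3 under siControl. A region at chr11:57910441-57917552, 78.3 kb from its higher-coordinate end and nearer to Larp1, was held by all siJunb and siControl libraries and by siH1f0 replicates 1 and 2. Its percentiles were 23.6, 92.8 and 77.9 under siJunb, 79.8 and 89.8 under siH1f0 and 42.4 and 82.5 under siControl. The other 8 regions of the window were each found in 1 library.

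Hand2 (chr8:57320983-57324517) had 1 peak in each of siJunb replicate 2, siH1f0 replicate 2 and siControl replicate 2, the 3 lists with the most peaks of their groups, and each lay at a different place. The siJunb peak, chr8:57319329-57320714, ended 19 bp before the promoter sequence that RefSeq gives for Hand2 (GRCm38.p6, chr8:57320733-57321032, plus strand, 300 bases around the annotated start). The promoter is shown because it is the only one of the matched promoters with a MEF2C peak beside it, and the capitals mark its only match to the 4 motifs searched, the GATA motif AGATAA read on the other strand.
Hand2 promoter: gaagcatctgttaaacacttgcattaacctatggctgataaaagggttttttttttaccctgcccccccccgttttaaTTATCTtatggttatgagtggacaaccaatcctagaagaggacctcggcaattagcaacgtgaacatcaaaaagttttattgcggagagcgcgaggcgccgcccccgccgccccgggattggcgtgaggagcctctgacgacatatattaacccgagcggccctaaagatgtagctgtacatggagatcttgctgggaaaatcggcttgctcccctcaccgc
The peak stood at percentile 9.79 of its list and was absent from the other 7 lists.

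Promoter sequences of 4 of the 10 genes (Hand2, Tbx20, Isl1 and Nkx2-5) were in the RefSeq table of 32851 promoters, and no MEF2C peak touched any of the 4. Both strands were searched for the MEF2 motif (CTA, any 4 bases, TAG), the AP-1 motif TGANTCA, the GATA motif AGATAA and the T-box motif AGGTGT, which occur in 3.69, 7.81, 11.2 and 13.7% of all promoters of this length. The motifs do not overlap in the matches found. The matches were that in Hand2, at bases 79 to 84, and AGATAA in Isl1, at bases 261 to 266.

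Nkx2-5 (chr17:26838664-26844988), an early marker of the cardiac lineage, had 2, 23 and 9 peaks in its window under siJunb, 9, 11 and 3 under siH1f0 and 4 and 9 under siControl, and no peak within 5 kb in any library. The nearest recurrent region, chr17:26859004-26866049, lay 14.0 kb from its higher-coordinate end and was missing only from siH1f0 replicate 3. Its percentiles were 23.6, 86.6 and 22.8 under siJunb, 68.4 and 50.2 under siH1f0 and 19.7 and 35.6 under siControl, below the middle of the list in 4 of the 7 libraries that held it. Among the other regions held by 6 or more libraries, 1 lay nearer to Kifc5b and 1 nearer to Cuta and Phf1. The Nkx2-5 promoter (GRCm38.p6, chr17:26841516-26841815, minus strand) is shown because H1.0 reached it. Its capitals mark the 188 bases inside the H1.0 peaks of day 1 replicate 1 and ground-state replicate 2, the longer of the H1.0 lists.
Nkx2-5 promoter: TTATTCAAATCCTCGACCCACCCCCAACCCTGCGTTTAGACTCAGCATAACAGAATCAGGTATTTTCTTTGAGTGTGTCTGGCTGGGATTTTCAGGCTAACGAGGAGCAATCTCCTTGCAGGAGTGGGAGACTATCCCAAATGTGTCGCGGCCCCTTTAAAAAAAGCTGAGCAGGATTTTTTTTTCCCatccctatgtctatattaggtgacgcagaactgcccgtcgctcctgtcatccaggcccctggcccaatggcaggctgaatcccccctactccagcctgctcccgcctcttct

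Nkx2-6 (chr14:69171802-69175540), a relative of Nkx2-5 active in the pharyngeal pouches and the caudal heart, had no peak in its window in any siJunb library, 0, 0 and 1 under siH1f0 and 1 and 2 under siControl. Isl1 (chr13:116298270-116309688) had 1 peak in each siJunb library and none in the 3 siH1f0 and 2 siControl libraries. Both windows are nearly empty of MEF2C, and both carry a region that separated groups, described next.

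The comparison of siJunb with siControl asks which MEF2C regions depend on JUNB, a subunit of AP-1. A region was called lost when both siControl libraries and no knockdown library held it, and gained in the reverse case. Under siJunb 4 of the 121 regions were lost (3.31%, against a background of 1.98% of all regions), which is 4 of the 13 that both siControl libraries held (background 14.1%). These calls carry no p-value, since with 3 against 2 libraries the two-sided exact permutation test cannot go below 0.2.

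The lost regions lay outside the bodies of the 10 genes. That of the Nkx2-6 window, chr14:69161904-69162944, was the closest, 8.86 kb from the gene, with maxima of 11 and 32 in the siControl libraries (percentiles 66.7 and 73.5). The one in the Gata6 window, chr18:10946275-10947608, lay 104.9 kb away, at percentiles 52.2 and 57.7 under siControl. Those in the Gata4 window, chr14:63177016-63179368, and the Nkx2-5 window, chr17:26726408-26728603, lay inside Fdft1 and Crebrf, at percentiles 9.33 and 43.1 and 9.33 and 57.7 under siControl. The last 3 were also held by siH1f0 replicates 1 and 2, whereas the Nkx2-6 region was held by no knockdown library of either kind.

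The only region gained under siJunb was chr13:116192608-116193102, 105.2 kb from Isl1 (0.826% of the 121, against a background of 0.256%). The call ended, with 0 regions gained, when a library had to cover at least 0.5 of a region to hold it. The region's maxima were 26, 57 and 76 in the 3 siJunb libraries, percentiles 98.9, 99.9 and 99.9, and 227, 385 and 183 bp were covered. By summed coverage the same peaks stood at percentiles 9.48, 70.2 and 35.1. In those lists 0.0341, 0.0898 and 0.0155% of peaks were narrower. The same stretch of DNA was also a peak with other antibodies. It stood at percentile 99.9 in H1.0 day 1 replicate 1, 99.8 in H1.0 ground-state replicate 2, 99.8 in H3K9me3 day 1 replicate 1 and 99.8 in H3K9me3 ground-state replicate 2, with maxima of 21, 31, 26 and 109. These peaks spanned 430, 1243, 95 and 384 bp. The signal here thus also occurred without siJunb and without MEF2C antibody, and what part this had in the MEF2C call was not tested.

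The comparison of siH1f0 with siControl asks the same of H1.0. Under siH1f0 1 region was lost (0.826%, background 0.249%, and 1 of the 13 that both siControl libraries held, background 1.78%), the Nkx2-6 region above, and 1 was gained (0.826%, background 0.448%), chr15:40905788-40908921 inside Zfpm2. The gained region was weak, with maxima of 9, 14 and 4 in the siH1f0 libraries at percentiles 8.96, 41.0 and 4.71.

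Set directly against each other, siJunb and siH1f0 differed in 3 regions. The Isl1 region was in all siJunb and no siH1f0 libraries (background 0.132%). The Zfpm2 region just named and chr15:40776948-40778836, also inside Zfpm2, were in all siH1f0 and no siJunb libraries (1.65% of the 121, background 1.41%). The second was held by siControl replicate 2 as well, at percentile 46.4, against 41.9, 45.8 and 15.4 under siH1f0. With at least 0.5 of a region covered, the calls for siH1f0 against siControl and for siJunb against siH1f0 also numbered 0. Single libraries decided several of these counts, and the shares of all 77240 regions moved with them. Without siControl replicate 1, 18 regions in place of 4 counted as lost under siJunb (14.9%, background 10.5%) and 7 in place of 1 as lost under siH1f0 (5.79%, background 4.37%). Without siControl replicate 2, 4 counted as lost (3.31%, background 2.21%) and 6 as gained under siH1f0 (4.96%, background 3.96%), and 2 as gained under siJunb (1.65%, background 1.40%). Without siH1f0 replicate 3, 12 in place of 2 were in all siH1f0 and no siJunb libraries (9.92%, background 4.91%) and 4 in place of 1 were gained (3.31%, background 2.58%). Without siH1f0 replicates 1 and 2 in turn, 3 (2.48%, background 1.13%) and 2 (1.65%, background 0.567%) were gained. Without siJunb replicate 1, 6 in place of 1 were gained (4.96%, background 4.32%) and 4 in place of 1 were in all siJunb and no siH1f0 libraries (3.31%, background 3.11%).

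**Figure D3:**
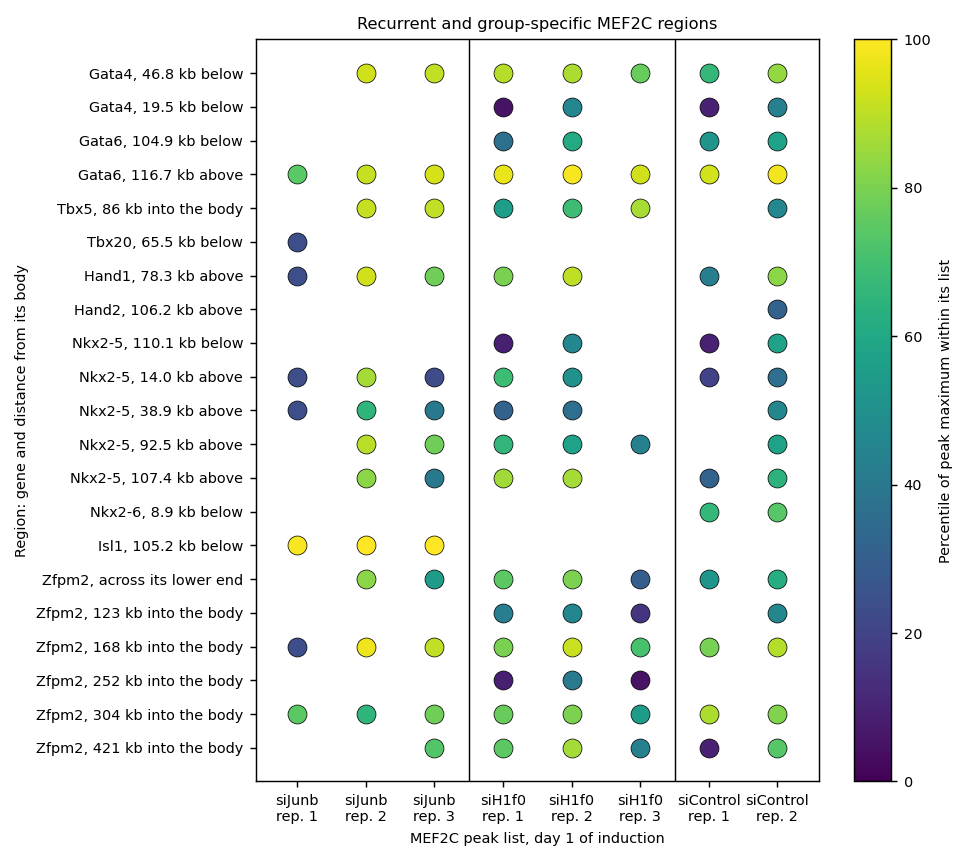
MEF2C regions held by at least 6 libraries or named by a call or as the most recurrent of a window (rows, with distance from the gene), in the 8 lists (columns); a dot is a peak, and its colour the percentile of its maximum in that list. The Isl1 region is filled in siJunb libraries alone and the Nkx2-6 region in siControl libraries alone, whereas the Gata6 region at 116.7 kb and the Zfpm2 regions at 168 and 304 kb are filled in all 8.

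Scaled to list length, the 10 windows together held 12.3 ± 0.36 MEF2C peaks per 10000 listed under siJunb, 13.6 ± 1.19 under siH1f0 (SD, n = 3 each) and 12.2 ± 1.11 under siControl (SD, n = 2). By library the values were 11.9, 12.7 and 12.4 under siJunb, 14.0, 14.6 and 12.3 under siH1f0 and 11.4 and 13.0 under siControl, and the 3 groups overlapped. When every list was reduced to its 11731 strongest peaks, the windows held 14, 13 and 12 peaks under siJunb, 18, 16 and 14 under siH1f0 and 10 and 13 under siControl. With equal lists, then, siH1f0 libraries all lay above siControl, a contrast in which the two-sided exact permutation test cannot go below 0.2. In the second naming series alone the differences were -0.42 peaks per 10000 for siJunb minus siControl, 1.34 for siH1f0 minus siControl and -1.77 for siJunb minus siH1f0. By the median, the members' windows were also more thinly covered than those of all protein-coding genes. MEF2C peaks covered a median of 0.338, 1.37 and 0.880% of the 10 windows under siJunb, 1.29, 1.93 and 0.523% under siH1f0 and 0.307 and 1.66% under siControl. Over all protein-coding genes the medians were 0.501, 3.12 and 2.05% under siJunb, 2.46, 3.89 and 0.921% under siH1f0 and 0.602 and 3.16% under siControl. The median peak of the 10 windows stood at percentile 23.6, 48.9 and 40.3 of its list under siJunb, 55.4, 45.8 and 43.4 under siH1f0 and 31.2 and 46.4 under siControl, so that only siH1f0 replicate 1 had it above the middle.

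Per gene, an exact two-sided permutation test over libraries was run for all 21887 windows with Benjamini-Hochberg adjustment. It called 0 genes in all 3 comparisons, with 0 at an unadjusted p under 0.05, as its smallest p is 0.2 for 3 against 2 and 0.1 for 3 against 3 libraries. The smallest adjusted p was 0.757 for siJunb against siControl, 1 for siH1f0 against siControl and 0.583 for siJunb against siH1f0, by the permutation test.

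Zfpm2 was the member whose scaled counts set the 3 groups apart. It had 3.41, 1.84 and 1.94 peaks per 10000 under siJunb, 5.25, 5.62 and 4.48 under siH1f0 and 4.02 and 3.96 under siControl. All siJunb libraries lay below and all siH1f0 libraries above both siControl libraries. The means were 2.39 ± 0.88 under siJunb, 5.11 ± 0.58 under siH1f0 (SD, n = 3 each) and 3.99 ± 0.043 under siControl (SD, n = 2). By the exact two-sided permutation test the difference was -1.59 for siJunb minus siControl (adjusted p = 0.757), 1.12 for siH1f0 minus siControl (adjusted p = 1) and -2.72 for siJunb minus siH1f0 (adjusted p = 0.583). With lists of equal length the counts were 4, 3 and 5 under siJunb, 7, 8 and 5 under siH1f0 and 4 and 6 under siControl, and the groups overlapped or met.

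The window of Tbx5 had 0.852, 3.67 and 3.49 peaks per 10000 under siJunb, 0.437, 0.843 and 2.24 under siH1f0 and 0.670 and 0.720 under siControl. The siJunb libraries all lay above siControl, but in siJunb replicate 1 this was a single peak. The means were 2.67 ± 1.58 under siJunb, 1.17 ± 0.94 under siH1f0 (SD, n = 3 each) and 0.695 ± 0.035 under siControl (SD, n = 2), and siJunb minus siControl was 1.98 (adjusted p = 0.757, exact permutation test).

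Scaled to list length, the counts of the GATA genes and Hand1 separated siH1f0 from siControl. Gata4 had 2.56, 0.408 and 0.775 peaks per 10000 under siJunb, 2.19, 2.53 and 2.24 under siH1f0 and 2.01 and 1.80 under siControl. For Gata6 the values were 0.852, 0.612 and 0.388 under siJunb, 1.75, 1.40 and 1.12 under siH1f0 and 0.670 and 1.08 under siControl. All siH1f0 libraries stood above siControl at both genes, and with lists of equal length neither separation remained. Nkx2-5 overlapped in all 3 contrasts, with 1.71, 4.69 and 3.49 under siJunb, 3.94, 3.09 and 1.68 under siH1f0 and 2.68 and 3.24 under siControl. Hand1 had 0.852, 1.02 and 1.94 under siJunb, 0.437, 0.562 and 0 under siH1f0 and 0.670 and 1.08 under siControl, lowest under siH1f0. Yet siH1f0 replicate 1 and siControl replicate 1 each held 1 Hand1 peak, in lists of 22870 and 14928 peaks. With lists of equal length the Hand1 counts were 1, 2 and 0 under siH1f0 and 1 and 1 under siControl, and these groups overlapped.

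Over all members, 2 of the 10 genes (Tbx5 and Isl1) were higher in every siJunb than in every siControl library, where 12.9% of all genes were, and 2 (Nkx2-6 and Zfpm2) were lower, where 13.5% were. Under siH1f0 3 (Gata4, Gata6 and Zfpm2) were higher than in siControl (background 7.17%) and 2 (Hand1 and Nkx2-6) were lower (background 6.94%). Under siJunb 2 (Hand1 and Isl1) were higher than under siH1f0 (background 8.12%) and 2 (Gata6 and Zfpm2) were lower (background 9.04%). The siJunb and siH1f0 comparisons share the siControl libraries. With lists of equal length, 3 (Tbx5, Nkx2-5 and Isl1) were higher under siJunb than in siControl (background 9.27%) and 1 (Nkx2-6) was lower (background 6.19%). Under siH1f0, 2 (Tbx5 and Nkx2-5) were then higher than in siControl (background 3.89%) and 1 (Nkx2-6) was lower (background 2.31%). Under siJunb, 1 (Isl1) was then higher than under siH1f0 (background 5.36%) and 0 were lower (background 3.92%).

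**Figure D4:**
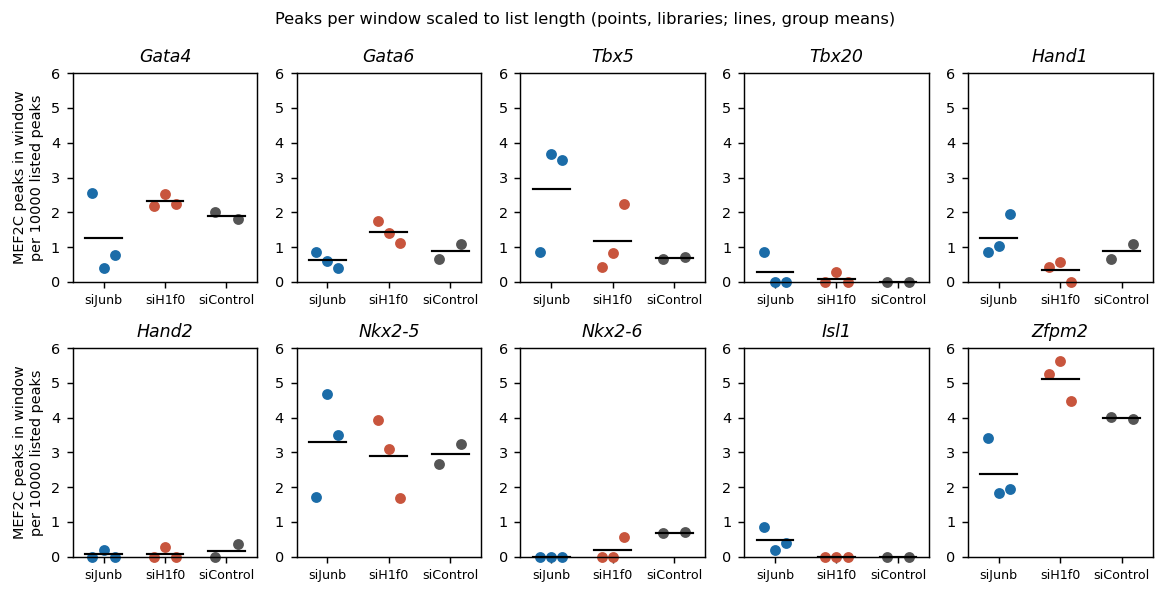
MEF2C peaks in each gene's window per 10000 listed peaks, for siJunb, siH1f0 and siControl libraries (points) with the group mean (line). In Zfpm2 siJunb libraries lie at 1.84 to 3.41, siH1f0 libraries at 4.48 to 5.62 and siControl libraries at 3.96 and 4.02; in Tbx5 siJunb replicates 2 and 3 stand at 3.67 and 3.49.

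A pair of lists of related genes was counted in the same way. Of 24 other cardiac regulators, 7, 14 and 11 had a MEF2C peak within 5 kb under siJunb, 12, 15 and 11 under siH1f0 and 7 and 14 under siControl. Mef2c itself, Mef2d, Srf (a partner of MEF2 factors at muscle genes), Tbx3 (a T-box repressor of the conduction system) and Tead1 had one in all 8 libraries, and 5 had none. Of 26 relatives of the members from other lineages, 2, 8 and 5 had a peak under siJunb, 9, 10 and 2 under siH1f0 and 4 and 9 under siControl. Twist2 and Zfpm1 had one in all 8, and 11 had none. Among all protein-coding genes, 16.1% had one in all 8 libraries and 31.6% had none. Twist1, a mesenchymal factor, had a peak in 0 of 3 siJunb, 2 of 3 siH1f0 and 2 of 2 siControl libraries (background for a gene with a peak in all siControl and no siJunb libraries 1.15%).

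The H1.0 and H3K9me3 lists address what chromatin the 10 genes had at day 1 and in the ground state. H1.0 peaks covered a median of 34.7 and 0.759% of the 10 windows in the day 1 libraries and of 2.97 and 34.4% in the ground-state libraries. Medians over all protein-coding windows were 42.0 and 1.07% at day 1 and 3.65 and 39.8% in the ground state, so the members lay below the genome in each of the 4 lists. The longer list had the higher coverage in both states, and for none of the 10 did both day 1 libraries stand on 1 side of both ground-state libraries (background 0.0457% higher and 0% lower at day 1).

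Isl1 had the lowest H1.0 coverage at day 1, 12.0 and 0%, and 0 and 26.7% in the ground state, at percentiles 4.85, 6.62, 2.41 and 25.7 of all windows. Hand1 reached 20.8% in ground-state replicate 1, percentile 98.0 of all windows, but 26.6% and percentile 25.6 in ground-state replicate 2. Tbx20 had 48.7 and 0.655% at day 1 and 2.26 and 75.5% in the ground state, the last at percentile 95.2. The high positions of Hand1 and Tbx20 thus did not recur in the other library of the same state. All 4 H1.0 lists shared 1399 bp in the 10 windows, and 991 bp of them lay at chr15:40655467-40656457, in Zfpm2 and inside the MEF2C region that spans its lower-coordinate end.

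H3K9me3 covered a median of 1.01 and 5.83% of the 10 windows at day 1 and of 1.05 and 4.33% in the ground state, against 1.46 and 3.94% and 0.981 and 4.21% over all windows. No member separated the states (background 1.25% higher and 0.475% lower at day 1). The mark lay within 5 kb of Gata6 and Zfpm2 in all 4 lists and of Gata4 in ground-state replicate 2, and of no other member. By list this was 2 and 2 of the 10 at day 1 and 2 and 3 in the ground state. The shares of all protein-coding genes were 26.9 and 32.3% at day 1 and 17.5 and 37.1% in the ground state. The long body of Zfpm2 again offers the most sequence for such a peak. Of 51 merged H3K9me3 regions in the windows, 14 (27.5%) were in all 4 lists, against 19.3% of all 65766 H3K9me3 regions. Of the 51, 45 lay outside the gene bodies, and so did 12 of the 14. The strongest of the 14 lay 14.4 kb from Nkx2-6, chr14:69151133-69157383, at percentiles 98.0 and 96.0 at day 1 and 96.4 and 92.2 in the ground state. The next by median percentile lay 13.3 kb from Tbx5, chr5:119898477-119906087, at percentiles 95.1 and 93.5 at day 1 and 94.3 and 97.3 in the ground state. Hand1 had the following 3, at distances beyond 5 kb. The last of these, chr11:57703062-57708777, lay 119.9 kb from the gene and mostly outside its window, which starts at 57708713. Another, chr18:11048843-11056101, spanned the lower-coordinate end of Gata6, at percentiles 86.0 and 63.1 at day 1 and 24.3 and 78.8 in the ground state. No region was in both day 1 lists alone, and 1, in the Nkx2-5 window and 16.8 kb from the gene, was in both ground-state lists alone. Isl1 had 0.871 and 10.5% at day 1 and 0 and 1.24% in the ground state, so that 1 day 1 library stood apart.

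**Figure D5:**
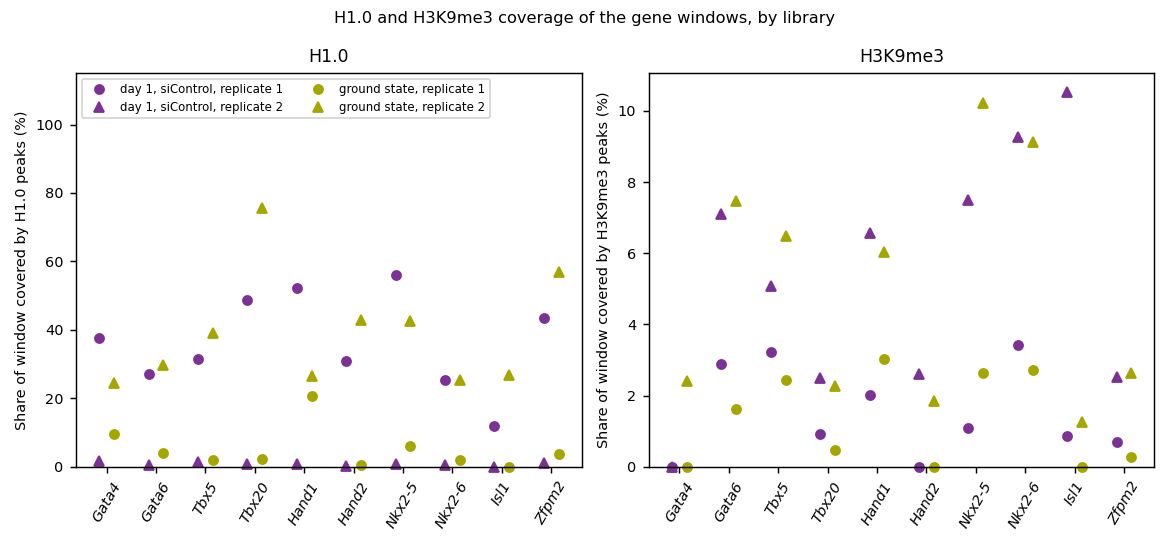
Share of each gene's window covered by H1.0 peaks (left) and H3K9me3 peaks (right) in day 1 siControl libraries (purple) and ground-state libraries (olive), with circles for replicate 1 and triangles for replicate 2. For H1.0 the day 1 circle and the ground-state triangle are high for nearly every gene, with Hand1 also at 20.8% in the ground-state circle, and for H3K9me3 both triangles are high for most genes, Gata4 and Isl1 having only 1 high triangle.

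The MEF2C regions of the 10 windows were touched by H1.0 about as often as all MEF2C regions. At day 1 102 (84.3%) and 9 (7.44%) of the 121 were touched by an H1.0 peak, against 88.4 and 9.86% of all regions, and in the ground state 23 (19.0%) and 93 (76.9%), against 20.2 and 79.9%. H3K9me3 touched 5 (4.13%) and 10 (8.26%) at day 1, against 6.61 and 9.95% of all, and 6 (4.96%) and 12 (9.92%) in the ground state, against 4.55 and 11.8%. The Nkx2-6 region that only siControl libraries held was touched by none of the 8 H1.0 and H3K9me3 lists.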

How the data were processed

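Peak lists of 16 of 24 labelled samples were used; the 8 IgG samples were not analysed here. The tools named are Bowtie2 and SEACR, with the build mm10, per the submitters' processing notes. Their versions, the handling of duplicates and any control used in peak calling are not given in the sources used here. A deposited list belongs to 1 sample and gives for each peak a signal, the summed coverage, and its maximum, as whole numbers with no visible scaling by the authors. Precision rests on list length and replicates, since aligned depth is unknown. The sample titles call the replicates biological but name no separate cultures, so a p here covers only the spread seen between these libraries.

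Chromosomes 1 to 19, X and Y were used, with 1-based coordinates. Gene bodies are those of RefSeq on GRCm38.p6, without strand or exons. MEF2C peaks overlapping by at least 1 bp were merged into regions, and a library held a region with 1 bp of a peak in it. All protein-coding windows were tested with exact permutation tests and Benjamini-Hochberg adjustment at 0.05 (Python 3.11.15, numpy 2.4.6, scipy 1.17.1, statsmodels 0.14.6). Interval counts were checked against bedtools, and tests against scipy and simulated data. Of the 40 pairs of lists made with the same antibody, none shared more than 20 identical peaks. The text names all 10 members, the most recurrent region of each window, every called region, and, of 2 further lists, genes with a peak within 5 kb in all 8 libraries or in all of one group and none of another. Other regions and peaks, and Mef2c's own region, were singled out after their values were seen. The members and lists were chosen with earlier results of these data known. Alternatives were narrower windows, lists of equal peak number or covered length, stronger peaks, wider merging, larger overlaps, ranking by summed coverage, single naming series and leaving out single libraries.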

Additional observations from a re-analysis of the deposited data

How the results depend on the processing

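Of 153 recomputed values of 15 results, 119 stayed within the spread between libraries or, for counts, within a factor of 1.5. The sign of a difference was not part of this rule. The counts of called regions rest on 1 to 4 regions; the cause of their moves was not tested. Regions lost under siJunb numbered 2 (4 in the report) with 50 kb on each side, with at least 0.5 of the region covered, with lists of equal length, with the upper 50% of each list, and with the member as nearest gene (added after seeing the data), and 0 within 5 kb of the body. Regions gained under siJunb, and those in all siJunb and no siH1f0 libraries, numbered 0 with 50 kb, within 5 kb and with 0.5 covered. Regions lost under siH1f0 numbered 0 within 5 kb and with 0.5 covered, and 2 with equal lists. Regions gained under siH1f0 numbered 0 with 0.5 covered. Regions in all siH1f0 and no siJunb libraries numbered 0 with 0.5 covered and 1 with equal lists and with the upper 50%. Leaving out single libraries gave 4 to 18 lost and 1 to 6 gained under siJunb, 1 to 7 lost and 1 to 6 gained under siH1f0, 1 to 4 in all siJunb and no siH1f0 libraries and 2 to 12 the reverse. The mean number of members with a peak, siH1f0 minus siControl, was 1 within 5 kb and -1.17 within 50 kb. Peaks per 10000 with equal lists differed by 1.28 for siJunb minus siControl (0.160 as deposited), 3.84 for siH1f0 minus siControl (1.47) and -2.56 for siJunb minus siH1f0 (-1.31).

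Leaving out single libraries also turned the sign of differences that were not called: -0.623 to 0.943 peaks per 10000 for siJunb minus siControl, -0.5 to 1 members within 5 kb for siJunb minus siH1f0, and -17.9 to 16.0 percentage points of covered window for H1.0 and -1.68 to 3.14 for H3K9me3, day 1 minus ground state. The titles state no pairing of MEF2C libraries by replicate number. Deviations of same-numbered libraries correlated at -0.106 to 0.354 over 21887 windows. For replicate 2, whose libraries all belong to the second naming series, the values were 0.230, 0.241 and 0.354. With the replicate number as a block the differences were 0.121, 2.13 and -1.31 peaks per 10000 and 0.5, 1 and 0 members within 5 kb, for siJunb minus siControl, siH1f0 minus siControl and siJunb minus siH1f0. These differences carried no call, and the block was not applied to the counts of lost and gained regions. For the covered share of the window, day 1 minus ground state, the block left the median difference at -0.951 percentage points for H1.0 and 0.729 for H3K9me3, with correlations of -0.611 and 0.942. Pairing by naming series, added after seeing the data, crosses the replicate numbers for H1.0. For H3K9me3 it gives the same pairs as the replicate numbers, so it is no separate alternative there. The median differences in the first and second naming series were -2.21 and 0.307 for H1.0 and -0.044 and 1.502 for H3K9me3. Without aligned depth, a peak missing from a short list cannot be told apart from an unbound place.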

Other observations

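Mef2c, the induced factor whose protein was profiled, carried a MEF2C region in its own body in every library, at chr13:83602866-83605977 in siJunb replicate 1 and overlapping places in the others. Its maxima stood at percentiles 95.6, 99.2 and 98.2 under siJunb, 98.9, 99.3 and 97.8 under siH1f0 and 98.3 and 99.5 under siControl. A narrow peak in the Mef2c body, 323 bp in siJunb replicate 1 and 358 bp in siControl replicate 1, shared its upper edge at 83662628 between those libraries. A pair of wide peaks there also ended within 15 bp of each other, at 83561029 in siH1f0 replicate 1 (1532 bp) and 83561031 in siH1f0 replicate 2 (3057 bp). Native and transgene reads were not told apart here either.

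Among the 198 regions gained under siJunb over the genome, 4 (2.02%), that near Isl1 included, lay on peaks in the top 1% of both an H1.0 and an H3K9me3 list, against 0.474% of all 77240 regions. The share was 1.56% (3 of 192) for regions lost under siH1f0, 0.524% (8 of 1528) for those lost under siJunb and 0.289% (1 of 346) for those gained under siH1f0. It was 4.90% (5 of 102) for regions in all siJunb and no siH1f0 libraries and 0% (0 of 1088) for the reverse. The Isl1 region was the only 1 of the 198 narrower than 500 bp, a width under which 129 (0.167%) of all regions fell. These limits were set after seeing the data.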
